A study of Homo sapiens with 4 samples.

Results

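The immunoglobulin variable (V) and constant genes of BLaER1 cells were followed from the B cell stage to the macrophage-like stage. Members were chosen by their names and by measured values: rows of the deposited table named IGHV, IGKV or IGLV with a number, or IGHM, IGHD, IGKC, IGLC1 to IGLC3, IGHG1 to IGHG4, IGHA1, IGHA2 or IGHE, with a TPM above 0 in at least 1 of the 4 libraries. Of 58302 rows, 275 had such names and 64 of these were members, 51 of them V genes and 13 constant genes. The remaining 211 rows were listed at 0 in all 4 libraries. TPM is an abundance corrected for gene length and scaled to the same sum in every library. Levels of different genes can be set side by side as far as the length correction holds.

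BLaER1 is a human B cell leukaemia line kept as a clone. As background, every BLaER1 cell, at both stages, carries the transcription factor C/EBPα fused to part of the oestrogen receptor, so that oestradiol brings the factor into the nucleus. Total RNA of 2 undifferentiated and 2 differentiated libraries was sequenced. The differentiated cells were treated with 100 nM oestradiol, M-CSF and IL-3 for 5 to 6 days. A concentration of 10 ng/ml stands beside IL-3 in the protocol, and it is unclear if M-CSF had the same. No treatment is given for the undifferentiated cells. Separate cultures are not mentioned in the labels for libraries of the same stage. The p-values therefore describe the scatter of these libraries alone, which may be technical.

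An antibody pairs a heavy chain (locus IGH) with a light chain of the kappa (IGK) or lambda (IGL) type. A developing B cell cuts and joins V, D and J gene segments into the exon that encodes the variable domain, for the heavy chain first and for a light chain later, and splices it to the exons of a constant gene. The µ constant gene IGHM is used first, IGHD is reached by alternative splicing, and the γ, α and ε constant genes are reached only after class switching. Until a light chain is made, the µ chain pairs with a surrogate light chain.

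The members the results turn on were heavy chain genes. In GENCODE release 29, which uses build GRCh38 and in which the IDs of all 64 members were found, they lie on the minus strand of chromosome 14. IGHM spans chr14:105851705-105856218 and IGHD chr14:105836765-105845678. The V genes IGHV1-3 (chr14:106005095-106005574), IGHV3-30 (chr14:106335082-106335613), IGHV3-33 (chr14:106359793-106360324) and IGHV2-70 (chr14:106770577-106771020) follow at higher coordinates. Which build and annotation the authors used is not given in the sources used here. Each V gene has a short leader exon and a V exon. The V exon ends shortly after a conserved cysteine codon, where the segment is joined to D and J. The last 90 bases of the most abundant V genes, from the GENCODE transcripts, are shown first because they place this codon, TGT in capitals, and show how far the V families differ.
IGHV2-70: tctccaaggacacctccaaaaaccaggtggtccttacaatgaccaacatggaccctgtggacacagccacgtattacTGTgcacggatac
IGHV1-3: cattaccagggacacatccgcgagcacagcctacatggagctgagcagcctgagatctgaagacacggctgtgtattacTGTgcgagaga
IGHV3-30: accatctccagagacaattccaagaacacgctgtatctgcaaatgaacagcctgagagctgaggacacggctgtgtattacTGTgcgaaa
IGHV3-33: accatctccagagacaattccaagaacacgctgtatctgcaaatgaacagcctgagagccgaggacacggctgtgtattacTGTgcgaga
Over their whole transcripts IGHV2-70 and IGHV1-3 were 63.3% identical. IGHV1-3 shared 18.8% of its 50-base windows with any other annotated gene and none of its 100-base windows. No 50-base window of IGHM, IGHD or IGKC occurred in another gene.

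IGHV2-70 has a near copy, IGHV2-70D (chr14:106723574-106724093). The copy is present in the deposited table only under the symbol AC245369.1, so it is no member by name, and it was identified by its gene ID. The last 300 bases of both genes, chr14:106770577-106770876 for IGHV2-70 and chr14:106723574-106723873 for IGHV2-70D, are shown because reads must be divided between them. Capitals mark the bases that differ.
IGHV2-70: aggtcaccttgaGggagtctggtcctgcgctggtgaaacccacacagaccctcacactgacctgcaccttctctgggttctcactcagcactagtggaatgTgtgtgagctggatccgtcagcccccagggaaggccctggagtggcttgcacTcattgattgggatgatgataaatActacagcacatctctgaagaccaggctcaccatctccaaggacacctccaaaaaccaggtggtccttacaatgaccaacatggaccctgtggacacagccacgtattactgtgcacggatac
IGHV2-70D: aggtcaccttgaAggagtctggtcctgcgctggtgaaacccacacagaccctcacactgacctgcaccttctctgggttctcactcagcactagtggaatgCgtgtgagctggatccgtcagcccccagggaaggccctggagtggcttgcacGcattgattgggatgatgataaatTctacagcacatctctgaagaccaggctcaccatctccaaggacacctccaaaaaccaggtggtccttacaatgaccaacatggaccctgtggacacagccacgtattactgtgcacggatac
These were all of the 4 differences in 358 aligned bases (98.9% identity). The GENCODE transcript of IGHV2-70D is longer, 434 bases with 76 annotated as untranslated, whereas that of IGHV2-70 has 358 bases and 0 untranslated. How this bears on the division of reads was not tested. IGHV2-70 shared 43.7% of its 50-base windows with IGHV2-70D and 8.88% of its 100-base windows. IGHV3-30 and IGHV3-33 differed at 5 of 431 bases (98.8% identity) and shared 65.4% of their 50-base windows, so the division of reads within this pair is uncertain as well.

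In undifferentiated cells the highest members were 2 heavy chain V genes and the µ constant gene, and all 3 were much lower after differentiation. IGHV2-70 was listed at 526.79 and 438.26 TPM in the undifferentiated libraries and at 5.95 and 6.27 TPM in the differentiated libraries. Both undifferentiated values lay far above both differentiated ones. The means were 483 ± 62.6 and 6.11 ± 0.226 TPM (SD, n = 2 each), so that 1.27% of the level was left. On the log2(TPM + 1) scale used for all tests, which understates the change of low genes, the difference was -6.08 ± 0.35 (SE; adjusted p = 8.93e-08, limma). It ranked 8 among the falls of all 10180 genes tested.

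IGHV1-3 (ENSG00000211935) followed at a lower level. Its TPM was 239.15 and 140.92 in undifferentiated and 3.62 and 2.50 in differentiated cells, again without overlap of the stages. The means were 190 ± 69.5 and 3.06 ± 0.792 TPM (SD, n = 2 each). With 1.61% of its TPM left, the log2 difference was -5.52 ± 0.40 (SE; adjusted p = 5.96e-07, limma), which ranked 10 among the falls.

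IGHM, which encodes the constant part of the µ heavy chain, was listed at 137.04 and 81.91 TPM before and at 5.01 and 5.24 TPM after differentiation. The differentiated libraries lay close together, whereas the undifferentiated libraries differed by more, replicate 1 being the higher. Over tested genes above 0 in all libraries, the median ratio to the gene's geometric mean was 1.415 in undifferentiated replicate 1. It was 0.836 in undifferentiated replicate 2 and 0.911 and 0.955 in the differentiated libraries. Such a gap was thus not particular to IGHM. The IGHM means were 109 ± 39.0 and 5.125 ± 0.163 TPM (SD, n = 2 each), and 4.68% of the level was left. The log2 difference was -4.13 ± 0.39 (SE; adjusted p = 5.39e-06, limma), rank 57 among the falls. IGHV2-70, IGHV1-3 and IGHM each kept their calls with any single library left out. In bulk RNA, fewer cells that express a gene and less of its RNA per cell cannot be told apart.

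The AC245369.1 row, IGHV2-70D by its ID, was listed at 66.64 and 92.05 TPM in undifferentiated and at 0.55 and 1.93 TPM in differentiated cells. Its log2 difference was -5.22 ± 0.42 (SE; adjusted p = 1.73e-06, limma). The ratio of IGHV2-70 to this row was 7.91 and 4.76 in undifferentiated libraries and 10.8 and 3.25 in differentiated libraries, with no order between the stages. With both rows added together, an alternative chosen after seeing the data, the log2 difference of IGHV2-70 was -6.08 (adjusted p = 8.87e-08, limma).

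**Figure D1:**
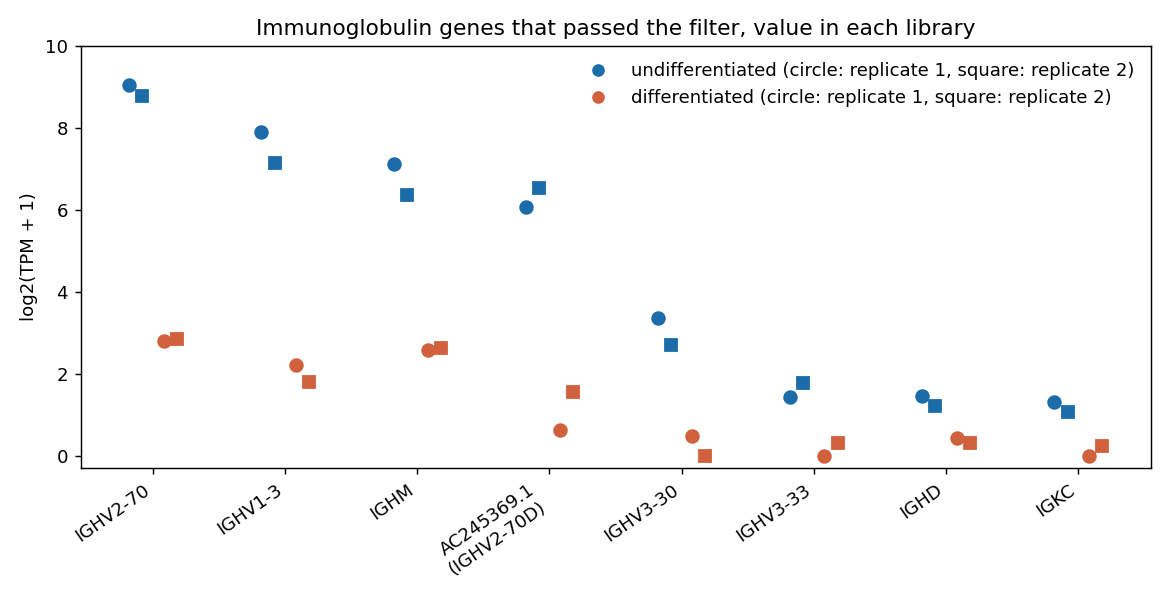
log2(TPM + 1) of the 7 immunoglobulin members that passed the filter on low values, and of the row that holds IGHV2-70D, in each undifferentiated (blue) and differentiated (orange) library; circles are replicate 1 and squares replicate 2. In each of the 8 rows both undifferentiated libraries lie above both differentiated ones. Of the 7 members, 4 passed the filter through undifferentiated libraries alone and had to lie in this order. How many of all tested genes separate in the same way was not counted, so the count of 8 carries no weight. IGHV2-70 spans the widest gap, from 5.95 and 6.27 TPM to 526.79 and 438.26 TPM.

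Only 4 other members reached the filter of at least 1 TPM in at least 2 libraries, and each did so through the undifferentiated libraries alone, so they had to differ between the stages. IGHV3-30 was listed at 9.33 and 5.48 TPM in undifferentiated cells and at 0.41 and 0 TPM in differentiated cells (log2 difference -2.78 ± 0.38, SE; adjusted p = 7.57e-05, limma). IGHV3-33 was listed at 1.70 and 2.44 TPM before and at 0 and 0.24 TPM after differentiation (-1.45 ± 0.24, SE; adjusted p = 0.000288, limma). Both genes were low beside IGHV2-70 in every library. IGHD, the constant gene of the δ chain, was listed at 1.75 and 1.33 TPM before and at 0.36 and 0.25 TPM after differentiation (-0.96 ± 0.22, SE; adjusted p = 0.00347, limma). IGKC, the constant gene of the kappa light chain, was listed at 1.47 and 1.09 TPM before and at 0 and 0.18 TPM after differentiation (-1.06 ± 0.19, SE; adjusted p = 0.000662, limma).

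The calls of 3 of these genes depended on single libraries. Without differentiated replicate 1 the adjusted p in limma was 0.0535 for IGHV3-30, 0.0634 for IGHV3-33 and 0.0528 for IGHD. Without differentiated replicate 2 it was 0.0884 for IGHV3-30 and 0.0839 for IGHD. Leaving out a differentiated library also left few calls in the whole table, 344 and 337 lower genes instead of 2326.

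Among the 7 members tested, 7 were called lower and 0 higher (limma, Benjamini-Hochberg adjusted p below 0.05 over all genes). Of all 10180 tested genes, 22.8% were called lower and 18.6% higher. The number of members with an unadjusted p below 0.05 and a higher level was also 0. Because 4 of the 7 passed the filter only through the stage in which they were high, the count of 7 carries no weight of its own; the 3 members at 1 TPM or more in all 4 libraries, IGHV2-70, IGHV1-3 and IGHM, were called lower without that restriction. The median log2 difference was -2.78 over the tested members, which is the value of IGHV3-30 and is partly set by the filter in the same way, and -0.14 over all genes tested. Without differentiated replicate 1 the number of members called lower was 4, namely IGHV2-70, IGHV1-3, IGHM and IGKC.

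Among the rows named IGHV, IGHV2-70 and IGHV1-3 took most of the TPM in every library. The TPM summed over all these rows, orphons outside the locus included, was 779.5 and 589.6 in undifferentiated and 11.1 and 10.1 in differentiated cells. IGHV2-70 made up 67.6% and 74.3% of this sum before differentiation and 53.7% and 62.1% after it. IGHV1-3 made up 30.7% and 23.9% before and 32.7% and 24.8% after. Together these genes held 98.3% and 98.2% of the sum in undifferentiated cells and 86.4% and 86.8% in differentiated cells. The IGHV rows other than IGHV2-70, IGHV1-3, IGHV3-30 and IGHV3-33 took 0.326% and 0.431% before and 9.85% and 10.8% after. Their summed share was thus larger in both differentiated libraries, within a sum that was much smaller. With the orphons left out it was 9.85% and 5.26% after differentiation. These shares leave out the IGHV2-70D row, which is not named IGHV. With that row counted, an alternative chosen after seeing the data, IGHV2-70 and IGHV1-3 together held 90.5% and 85.0% of the sum before and 82.4% and 72.9% after differentiation. The rows other than the 4 named genes then took 8.18% and 13.9% before and 14.1% and 25.1% after. Of the sum, the IGHV2-70D row alone held 7.88% and 13.5% before and 4.73% and 16.0% after. It was thus most of that share before differentiation. The nearly level values of 1 library of each stage came with counting this near copy of IGHV2-70 among the other rows. With 2 libraries a stage, the smallest two-sided p of an exact permutation test is 0.333, and shares and ratios are given with no test.

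**Figure D2:**
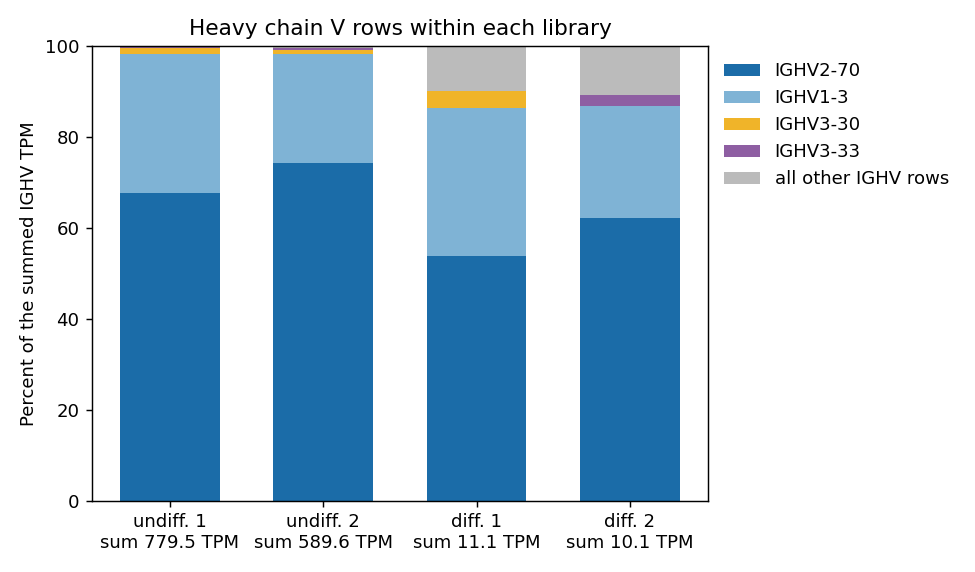
Stacked bars give the percent of the TPM summed over rows named IGHV (orphons included, the IGHV2-70D row not) taken by IGHV2-70, IGHV1-3, IGHV3-30, IGHV3-33 and all other IGHV rows in each library, with the summed TPM written under each bar. IGHV2-70 is the largest part in all 4 libraries. The grey part for other rows is 0.326% and 0.431% of sums of 779.5 and 589.6 TPM before differentiation. It is 9.85% and 10.8% of sums of 11.1 and 10.1 TPM after, or 9.85% and 5.26% with the orphons left out. The larger share is thus one of a much smaller sum.

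The V genes and the µ constant gene did not stand in the same ratio at the 2 stages. The TPM ratio of IGHV2-70 to IGHM was 3.84 and 5.35 in undifferentiated libraries and 1.19 and 1.20 in differentiated libraries. That of IGHV1-3 to IGHM was 1.75 and 1.72 before and 0.723 and 0.477 after. In both cases the stages did not overlap, and the V gene had lost more than IGHM. In contrast, the ratio of IGHV2-70 to IGHV1-3, 2.20 and 3.11 before and 1.64 and 2.51 after, overlapped between the stages. The ratio of IGHM to IGHD was 78.3 and 61.6 before and 13.9 and 21.0 after. A ratio within a library is not changed by rescaling that library, though it rests on low values in the differentiated libraries. The GENCODE transcripts are 358 bases long for IGHV2-70 and 395 for IGHV1-3, against 1485 and 1686 for IGHM. How well the length correction holds across such lengths was not tested, so the ratios of V genes to IGHM are not ratios of molecules.

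The other heavy chain constant genes stayed near 0. IGHG1, IGHG2, IGHG3, IGHG4, IGHA1, IGHA2 and IGHE, which encode the classes reached by switching, were each listed above 0 in at least 1 library, and none exceeded 0.10 TPM, the value of IGHG4 in differentiated replicate 2. IGHG2 had the lowest maximum of all members, 0.03 TPM, and marks the values just inside the rule, the rows just outside it being at 0. Of these 7 genes, 5 were listed in differentiated libraries alone, at such low values that no difference can be read from them. The summed TPM of all IGH constant members was 138.9 and 83.2 in undifferentiated and 5.72 and 5.72 in differentiated cells, which was mostly IGHM.

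Light chain genes were low at both stages. Summed over all IGKV rows, orphons included, TPM was 2.63 and 3.12 in undifferentiated and 1.40 and 0.47 in differentiated cells. With the orphons left out, the differentiated IGKV sums were 0.8 and 0.0 TPM. The IGLV rows summed to 5.11 and 3.68 TPM before and to 2.09 and 1.69 TPM after differentiation. In both loci the undifferentiated libraries lay above the differentiated ones, at levels far under those of the heavy chain. No light chain V gene passed the filter, and none was tested.

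The highest light chain V gene was IGKV3-20, listed at 0.99 and 2.02 TPM in undifferentiated cells and at 0 in both differentiated libraries. IGLV2-8 was listed at 0.75 and 1.77 TPM and IGLV4-3 at 1.22 and 0.22 TPM in undifferentiated cells, and both at 0 in the differentiated libraries. IGLV3-1 (0.50 and 0.45 TPM), IGLV2-14 (0.49 and 0.22 TPM), IGLV2-11 (0.25 and 0.28 TPM) and IGKV1D-8 (0.14 and 0.39 TPM) also appeared in both undifferentiated libraries and in neither differentiated one. These genes were picked here by that pattern, and none was tested. IGLV5-52 was the only light chain V gene listed in all 4 libraries, at 0.84 and 0.25 TPM before and at 0.52 and 0.60 TPM after differentiation, with overlapping stages. The other light chain V genes among the 6 highest of their locus and stage, such as IGKV2D-29 with 0.80 TPM and IGKV1OR2-108 with 0.60 TPM in differentiated replicate 1, were each listed in a single library.

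Among the lambda constant genes, IGLC1 was listed at 4.52 and 0 TPM in undifferentiated and at 0 and 0.32 TPM in differentiated cells. IGLC2 was listed at 0.52 and 0.17 TPM before and at 0 and 0.64 TPM after. IGLC3 was listed at 0.78 and 0.34 TPM before and at 0.18 and 0 TPM after. The stages overlapped for IGLC1 and IGLC2 and did not for IGLC3, and the sum of 5.82 TPM in undifferentiated replicate 1, against 0.51 TPM in replicate 2, came mainly from IGLC1. IGLC1 to IGLC3 are close copies of each other, so their separate values are uncertain. Windows shared between IGLC1 and IGLL5, a lambda-like gene of the same locus, were not measured, so the division of reads between them is unknown.

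Most members were faint. Of the 64 members, 52 stayed below 1 TPM in every library and 36 were listed above 0 in a single library. The median of the members' highest values was 0.315 TPM. Members listed above 0 numbered 36 and 27 in the undifferentiated and 25 and 21 in the differentiated libraries. In all, 26 members were listed in undifferentiated libraries alone, 21 in differentiated libraries alone and 17 at both stages. Of all 58302 rows, 29186 were above 0 in at least 1 library, but how many each library or stage listed was not counted. TPM keeps no sequencing depth, and the limit of detection in each library is unknown. No difference between the stages is therefore read from these member counts.

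The 43 V genes below 1 TPM in every library summed to 6.80 and 3.99 TPM in undifferentiated and to 4.58 and 2.75 TPM in differentiated cells. These sums overlapped between the stages, unlike those of the abundant V genes. Of the 51 V members, 11 are pseudogenes in GENCODE 29. The highest of them was IGHV5-78, listed at 0.52 and 1.34 TPM before and at 0 and 0.50 TPM after differentiation. IGHV4-31, which is annotated as functional, was listed at 0.65 and 0.20 TPM in undifferentiated cells and at 0 in differentiated cells, and IGHV3-42, a pseudogene, at 0.58 TPM in differentiated replicate 1 alone. The 4 orphons, V-like copies outside the antibody loci, were IGHV3OR15-7 (0.33 TPM), IGHV3OR16-15 (0.26 TPM), IGKV2OR2-1 (0.47 TPM) and IGKV1OR2-108, each listed in 1 differentiated library.

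**Figure D3:**
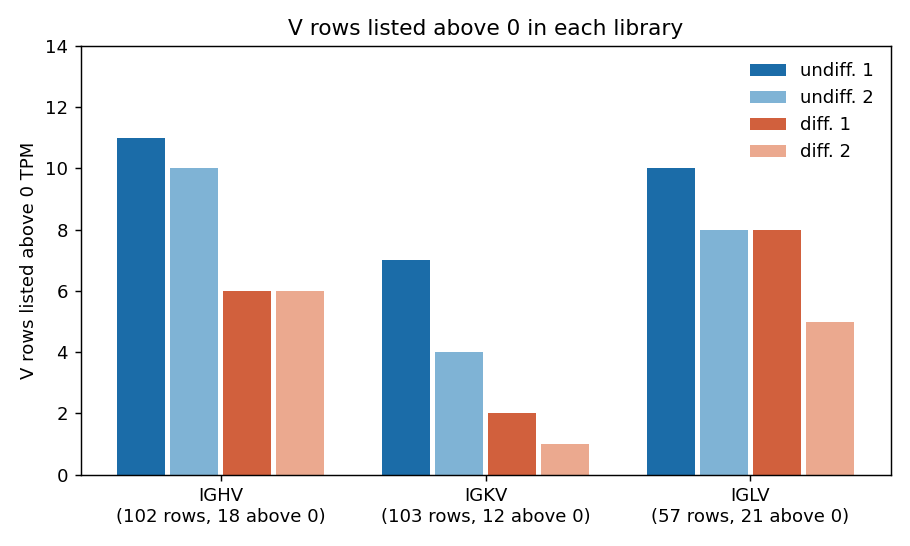
Bars count the V rows of each locus listed above 0 TPM in each library, with the number of rows in the table and the number of members written under each locus. Undifferentiated libraries (blue) list 11 and 10 IGHV, 7 and 4 IGKV and 10 and 8 IGLV rows, and differentiated libraries (orange) 6 and 6, 2 and 1, and 8 and 5. Sequencing depth is unknown, and rows listed per library over the whole table were not counted. No difference between the stages is read from these bars.

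The D and J segments, which are joined to V genes, were not listed. All 37 IGHD segment rows, 9 IGHJ rows, 5 IGKJ rows and 7 IGLJ rows were listed at 0 in all 4 libraries. The 55 D and J genes measured in GENCODE 29 are 11 to 176 bases long. The values by gene do not show which V, D and J segments were joined in these cells.

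Genes that act on the immunoglobulin loci or with their products were taken from lists chosen with earlier results of these data known. Of the 7 genes of the surrogate light chain and V(D)J recombination, 7 were called lower, with a median log2 difference of -4.31, where 22.8% of all tested genes were called lower. In this list 5 genes, IGLL1, IGLL5, RAG1, RAG2 and VPREB3, passed the filter through the undifferentiated libraries alone and had to be lower, so the count and the median carry no weight of their own. The other two, VPREB1 and DNTT, stood above 1 TPM in all 4 libraries. VPREB1, a surrogate light chain subunit, was listed at 46.39 and 48.52 TPM before and at 1.48 and 2.31 TPM after differentiation (adjusted p = 4.99e-06, limma). IGLL5, a lambda-like gene of the lambda locus, was listed at 10.04 and 7.97 TPM before and at 0.21 and 0.13 TPM after (adjusted p = 2.48e-05, limma). Undifferentiated cells thus held more VPREB1 than any conventional light chain gene, in both libraries. RAG1 and RAG2, which encode the recombinase, kept 1.19% and 1.91% of their TPM, and DNTT, which adds bases at the joints, kept 1.19%. These shares were close to those of IGHV2-70 and IGHV1-3. CD79A and CD79B, the signalling partners of membrane antibody, were both called lower and kept 11.4% and 15.7% of their TPM (adjusted p = 0.000221 and 0.000535, limma), more than IGHM with 4.68%.

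Transcription factors of immunoglobulin promoters and enhancers did not move together. Of 15 tested, 6 were called lower (EBF1, POU2AF1, PAX5, TCF3, IRF4 and SPIB), 4 higher (SPI1, IRF8, POU2F2 and ETS1) and 5 were not called. Their median log2 difference was -0.72. Over all tested genes, 22.8% were called lower and 18.6% higher. Of the 6 lower genes, 4 (POU2AF1, PAX5, IRF4 and SPIB) passed the filter through the undifferentiated libraries alone and had to be lower. IKZF3, at most 0.05 TPM in any library, was not tested. POU2F2 encodes OCT2, which binds the octamer element of V promoters, and was listed at 0.61 and 1.84 TPM before and at 10.04 and 7.41 TPM after differentiation (adjusted p = 0.000994, limma). POU2AF1, its B cell coactivator, went the other way, from 9.50 and 8.50 TPM to 0.41 and 0.29 TPM (adjusted p = 4.47e-05, limma). POU2F1, the widely expressed octamer factor OCT1, was not called (7.56 and 3.22 TPM before, 3.62 and 1.44 TPM after; adjusted p = 0.166, limma).

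Of 6 tested genes of antibody secretion, 2 were called lower, 1 higher and 3 were not called, where 22.8% and 18.6% of all tested genes were called lower and higher. JCHAIN and MZB1 passed the filter through undifferentiated and PRDM1 through differentiated libraries alone, so their directions were set by it. JCHAIN, which joins IgM and IgA into polymers, was listed at 9.58 and 3.56 TPM before and at 0 in both libraries after differentiation (adjusted p = 8.86e-05, limma). MZB1, a chaperone cofactor of µ chain assembly, fell from 12.19 and 9.61 TPM to 0.42 and 0.35 TPM (adjusted p = 3.46e-05, limma). PRDM1, a regulator of plasma cells that macrophages also express, rose from 0.12 and 0.02 TPM to 3.56 and 4.74 TPM (adjusted p = 4.41e-05, limma). XBP1, HSPA5 and HSP90B1, which serve secretion in many cell types, were not called. UNG, a DNA repair enzyme that also passed the filter through undifferentiated libraries alone, kept 11.5% of its TPM and was called lower (adjusted p = 0.00112, limma).

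**Figure D4:**
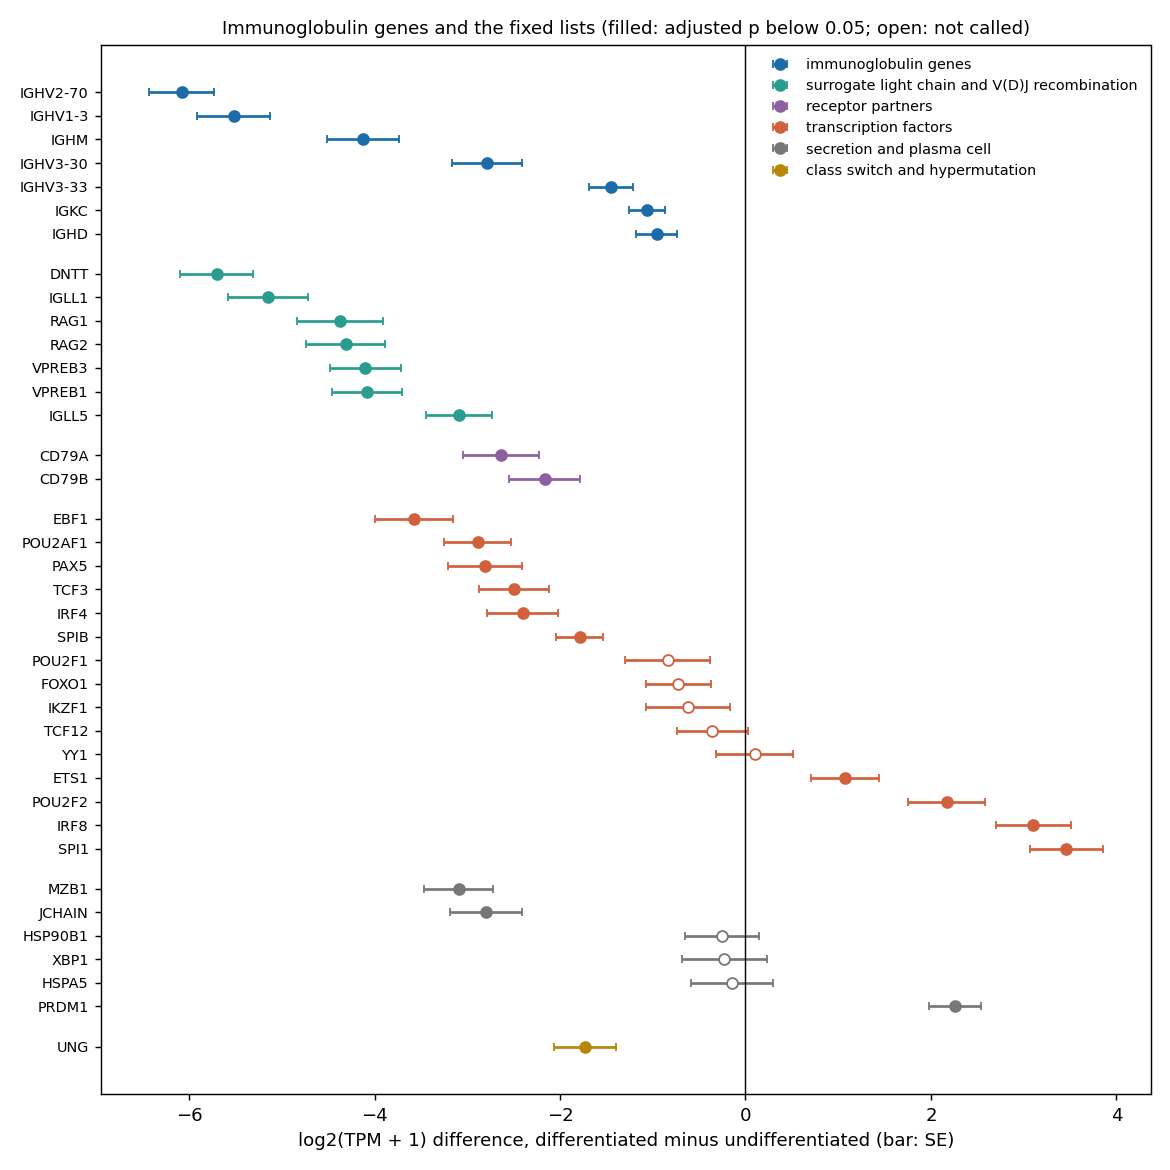
Points give the log2(TPM + 1) difference, differentiated minus undifferentiated, of each tested gene with its standard error, grouped and coloured by list; filled points have an adjusted p below 0.05. The immunoglobulin genes and the surrogate light chain and recombination genes all lie to the left of 0. In these lists 4 of 7 and 5 of 7 genes passed the filter through undifferentiated libraries alone and had to lie there. The 15 transcription factors, of which 4 passed in that way, lie on both sides, with SPI1, IRF8, POU2F2 and ETS1 called higher.

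Marker genes were read against the stage labels. The summed TPM of 7 B lineage markers was 180.3 and 126.0 in undifferentiated and 11.0 and 12.6 in differentiated cells, and that of 6 macrophage and monocyte markers was 7.94 and 6.22 before and 602.3 and 673.3 after. All 6 macrophage markers had a mean of at least 1 TPM after differentiation, and 1, CSF1R, had one before. The B lineage markers moved in the same direction as the immunoglobulin genes, and their part in the difference was not tested. Of the mature B cell markers, MS4A1 alone had a mean of at least 1 TPM in undifferentiated cells, and CR2 stayed at or below 0.01 TPM in every library. CD27 was listed at 0.04 and 0.07 TPM before and at 0 after differentiation. FCER2 went the other way, from 0 in both undifferentiated libraries to 0.41 and 0.28 TPM. The 5 plasma cell markers summed to 22.8 and 13.7 TPM before and to 4.06 and 5.11 TPM after differentiation, with JCHAIN and MZB1 above a mean of 1 TPM before and PRDM1 after, and SDC1 and TNFRSF17 below 1 TPM in every library. T cell markers summed to 0 in both undifferentiated libraries and to 0.83 and 0.31 TPM in the differentiated ones. The libraries also differed in makeup: the 50 most abundant rows held 78.4% to 85.7% of all TPM. After rescaling without these rows, 2570 genes were called lower and 3641 higher of 14867 tested, against 2326 and 1890 of 10180 as deposited, and IGHV2-70, IGHV1-3 and IGHM were again called lower.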

How the data were processed

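Total RNA of 4 libraries, 2 per stage, was measured by stranded RNA sequencing. The authors deposited 1 table of TPM values with a column per library. Trimmomatic, STAR and RSEM were used, per the submitters' processing notes; their versions, the build and the annotation: not given in the sources used here. Depth per library is unknown, since TPM does not keep it, and no counting interval was computed. RSEM divides reads between similar genes, so near-identical V genes are uncertain. Columns were assigned to samples by title and samples to stages by label; no column of values was left out.

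The 10180 genes that reached 1 TPM in 2 or more libraries were tested on log2(TPM + 1) with limma 3.58.1 in R 4.3.3 (moderated variances with a mean-variance trend, two-sided) and Benjamini-Hochberg adjustment over all tested genes. The fit had 2 residual and 10.9 prior degrees of freedom. The procedure was tested on simulated data with independent normal values and variances drawn from the fit itself. Such data cannot show how well the model holds for these libraries. Percent left is the mean differentiated TPM over the mean undifferentiated TPM. The members and lists were chosen with earlier results of these data known. A gene of these lists is not reported here. Named were all constant members, the 6 V members of each locus with the highest mean TPM in each stage, every member called and the lowest members; IGHV3OR16-15 was added after its value was seen, to complete the orphons. Positions and sequences came from GENCODE 29, matched by gene ID; windows are runs of 50 or 100 bases shared with any other gene's transcripts. Alternatives were other pseudocounts, filters and scalings, no trend, a replicate block, summed copies and each library left out.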

Additional observations from a re-analysis of the deposited data

How the results depend on the processing

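IGHV2-70, IGHV1-3 and IGHM were called lower in all 15 alternatives run, with log2 differences from -6.27 to -5.87, from -5.90 to -5.14 and from -4.49 to -3.76 (highest adjusted p in limma 0.0115, 0.016 and 0.0199, all without a filter). Fits with other filters or with rescaling took in fewer or more genes. Over all genes, 1187 of 4058 were called lower at a mean of at least 5 TPM and 573 of 29186 with no filter on low values. After rescaling without the 50 most abundant rows it was 2570 of 14867. Member counts are therefore not comparable between these fits. In the same order, the number of members called lower, 7 as reported, was 3 of 3 tested, 4 of 64 and 14 of 21. With a library left out it was 4 to 7, lowest without differentiated replicate 1, which leaves the lone library of that stage assumed to vary like the other stage. With no filter the calls of IGHV3-33 (adjusted p = 0.0765), IGKC (adjusted p = 0.098) and IGHD (adjusted p = 0.12) were lost in limma. No member was called higher in any of these fits, and no log2 difference of the 7 changed sign. The rescaling also added calls for IGKV3-20, IGLV2-8, IGLV3-1, IGLV2-14, IGLV2-11, IGLV4-3 and IGHV4-31, which were listed at 0 in both differentiated libraries and could only come out lower. Over all tested genes the median log2 difference was -0.14 as deposited, 0.04 after median-of-ratios scaling and 0.17 after the rescaling.

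Same-numbered libraries of the stages did not deviate together across genes (correlation -0.02). This rests on a single replicate contrast per stage, so it cannot tell whether such libraries shared a culture or batch. A fit with a replicate block called 7 members lower, beside 2036 of all 10180 genes.

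Among the summed TPM values, the rescaling moved 12 and adding IGHV2-70D moved 1, the IGHV sum of differentiated cells, to 11.8 TPM. Leaving out a library cannot move a mean of 2 by more than their SD, and the IGLC sum of undifferentiated cells, 3.17 TPM on average, was 0.51 TPM without replicate 1 and 5.82 TPM without replicate 2. With 2 libraries a stage and no depth, differences among members below 1 TPM could not be judged.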

Other observations

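V genes of the T cell receptor loci, which use the same joining machinery as the immunoglobulin loci, were listed in part. Of 124 such rows, 22 were above 0 in at least 1 library and 3 passed the filter. TRAV27 was listed at 181.49 and 83.55 TPM in undifferentiated cells and at 6.33 and 2.93 TPM in differentiated cells (log2 difference -4.53 ± 0.46, SE; adjusted p = 9.53e-06, limma), a level near that of IGHM in the same libraries. TRDV2 was listed at 4.46 and 4.68 TPM before and at 0.75 and 0 TPM after differentiation (adjusted p = 0.000389, limma). TRGV7 was listed at 0.66 and 0 TPM before and at 1.21 and 2.05 TPM after (adjusted p = 0.00972, limma). TRDV2 passed the filter through the undifferentiated and TRGV7 through the differentiated libraries alone, so the directions of both were set by it. CD3D, CD3E, CD3G, CD2 and CD8A were at 0 in both undifferentiated libraries.

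Of the rows that are immunoglobulin genes in GENCODE 29 under another kind of symbol, 18 in all, 2 were above 0: AC245369.1, described above, and AC245166.1, listed at 0.68 TPM in differentiated replicate 1. The lambda constant rows IGLC4, IGLC5 and IGLC7, which the choice by name leaves out, were each listed in 1 library, at 0.77, 1.06 and 0.20 TPM.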
